A study of Mus musculus with 7 samples.

Results

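The genes of the vacuolar ATPase (V-ATPase), the cathepsins and the lysosomal membrane glycoproteins *Lamp1* and *Lamp2* were examined in bulk RNA-seq of the cerebral cortex of 4 male CrT-/y mice and 3 male CrT+/y mice. Members were taken by gene symbol alone: symbols beginning with Atp6v or Atp6ap, Cts followed by a single letter, and *Lamp1* and *Lamp2*. This gave 46 of the 24346 genes in the table, namely 13 genes of the V1 sector, 10 of the V0 sector, 3 accessory genes, 18 cathepsins (14 cysteine, 2 aspartic and 2 serine proteases) and 2 LAMP genes. CrT-/y males are hemizygous for a deletion of exons 5 to 7 of *Slc6a8*, the X-linked gene of the creatine (Cr) transporter, in all cells of the body. CrT+/y males were their wild-type littermates. All animals were on a C57BL/6J background, were aged 100 days after birth and received no treatment, and each gave 1 library. The authors deposited FPKM, which are fragment counts divided by transcript length and by sequencing depth. A whole piece of cortex holds neurons, glia and vessels, so fewer cells of a type and less RNA per cell cannot be told apart in these values.

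The V-ATPase is a rotary pump that spends ATP to acidify lysosomes, endosomes, the Golgi and synaptic vesicles. Its V1 sector faces the cytosol and hydrolyses ATP, and its V0 sector sits in the membrane and conducts protons. The acid it makes in the lysosome lets cathepsins cut proteins, and in neurons the gradient it makes across the vesicle membrane drives transmitter loading. Genes of both groups are known targets of TFEB, a transcription factor that binds a palindrome with the core CACGTG near the start of lysosomal genes.

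This palindrome was looked for in the RefSeq promoter windows of the members, which run from 250 bases before to 50 bases after each annotated start on GRCm38.p6. Windows were at hand for 34 of the 46 members, with 38 starts in all. The 6 bases CACGTG were present in 9 member windows (23.7%) and in 7.15% of all 32851 windows. The 9 genes were *Atp6v0b*, *Atp6v0d1*, *Atp6v0e*, *Atp6v1a*, *Ctsa*, *Ctsd*, *Ctsf*, *Ctsl* and *Lamp1*. The 8-base palindrome TCACGTGA, which contains the first motif, was present in 5 member windows (13.2%) and in 0.974% of all windows. The form with a further G before and C after these 8 bases was present in 0 member windows and in 0.326% of all windows. All 3 motifs read the same on both strands. The 30 bases around each TCACGTGA are shown here because the 5 genes include *Atp6v0e*, the V0 gene called lower in the test given below. That call was close to the threshold (limma adjusted p = 0.0664), and the other genes with TCACGTGA were not called. Both cathepsins with the motif are among the well expressed ones. A link between the motif and the levels was not tested. Capitals mark the motif, and each sequence runs 5′ to 3′ on the strand of its gene.
Ctsa, plus strand, chr2:164833749-164833778: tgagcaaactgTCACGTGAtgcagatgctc
Ctsa, plus strand, chr2:164833766-164833795: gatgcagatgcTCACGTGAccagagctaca
Ctsd, minus strand, chr7:142387908-142387937: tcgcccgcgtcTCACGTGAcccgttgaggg
Atp6v0d1, minus strand, chr8:105566050-105566079: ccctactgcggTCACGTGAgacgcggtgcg
Atp6v1a, minus strand, chr16:44139373-44139402: ttttttttaaaTCACGTGAtaggcttaacg
Atp6v0e, plus strand, chr17:26676387-26676416: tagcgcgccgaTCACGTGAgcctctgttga

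The motif began 13 bases before and 4 bases after the start in *Ctsa*, 99 bases before it in *Ctsd*, 4 bases before it in *Atp6v0d1*, 132 bases before it in *Atp6v1a* and at base 2 after it in *Atp6v0e*. A match of letters describes the sequence and is no evidence that a factor binds there. The members without a window were *Atp6ap1l*, *Atp6v0a2*, *Atp6v0c-ps2*, *Atp6v0d2*, *Atp6v1b2*, *Atp6v1c1*, *Atp6v1g1*, *Atp6v1h*, *Ctsb*, *Ctse*, *Ctsh* and *Ctsw*.

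*Slc6a8* itself was checked first. Its FPKM was 12.4, 14.9, 14.7 and 15.7 in CrT-/y replicates 0 to 3 and 32.3, 29.6 and 28.1 in CrT+/y replicates 1 to 3. The log2 fold change of -1.05 passed the test (standard error 0.087, limma adjusted p = 0.00238), and every library lay on the side its label gives. Over the 12988 genes tested, 1318 (10.1%) passed the limma test at an adjusted p-value under 0.1, with 377 (2.9%) higher in CrT-/y animals and 941 (7.25%) lower. This split moved with the scaling of the animals to each other. It was 528 higher and 555 lower after quantile normalization, 741 and 463 after upper quartile scaling, 490 and 527 after median centring, 577 and 535 after scaling to the summed FPKM, and 580 and 667 after a correction for transcript length. The median log2 fold change over all tested genes was -0.033 without further scaling and lay between -0.0023 and 0.028 under these scalings. Relative sequencing depth ran from 0.871 to 1.23 times that of CrT-/y replicate 0. It was estimated as the most frequent FPKM ratio over weakly expressed genes. Of 2607 such genes, 684 to 915 were above 0 both in CrT-/y replicate 0 and in the animal set against it.

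Most of the members expressed in cortex did not pass the test. Of the 46 members, 32 had a mean of at least 1 FPKM and were tested. *Atp6ap1l* was the member called higher in CrT-/y cortex, and *Atp6v0e*, a small membrane subunit of V0, was the member called lower. The 2 calls are 6.25% of the tested members, beside 10.1% of all tested genes. The log2 fold change was above 0 in 16 members and below 0 in 16, with a median of -0.0057, and 9 members had an unadjusted p-value under 0.05, beside 25% of all tested genes.

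The size of a difference that these animals leave room for was read from the 95% confidence intervals of the fit. In 13 of the 32 members the whole interval lay within a log2 fold change of 0.2 in either direction, a change of at most 14.9%. It lay within 0.3 in 21 members and within 0.5 in 28 members. The 4 members whose interval went past 0.5 were *Atp6ap1l*, *Atp6v0e*, *Atp6v1f* and *Ctsk*. For the ring subunit and the head subunits of the pump, the interval ran from -0.18 to 0.15 for *Atp6v0c*, from -0.071 to 0.21 for *Atp6v1a* and from -0.084 to 0.19 for *Atp6v1b2*. These intervals come from the fit without further scaling and do not cover the choice of scaling. The estimates of these genes were -0.015, 0.069 and 0.053 in this fit and 0.047, 0.13 and 0.12 under upper quartile scaling. In simulated data with these groups, 200 of 12988 genes were changed. Of genes changed by 0.6 on the log2 scale 78% were recovered, and of those changed by 0.3, 12%. The data had 1318 called genes, and with more calls the adjustment asks for a less small unadjusted p-value. Recovery in the data can thus be higher than these shares.

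**Figure D1:**
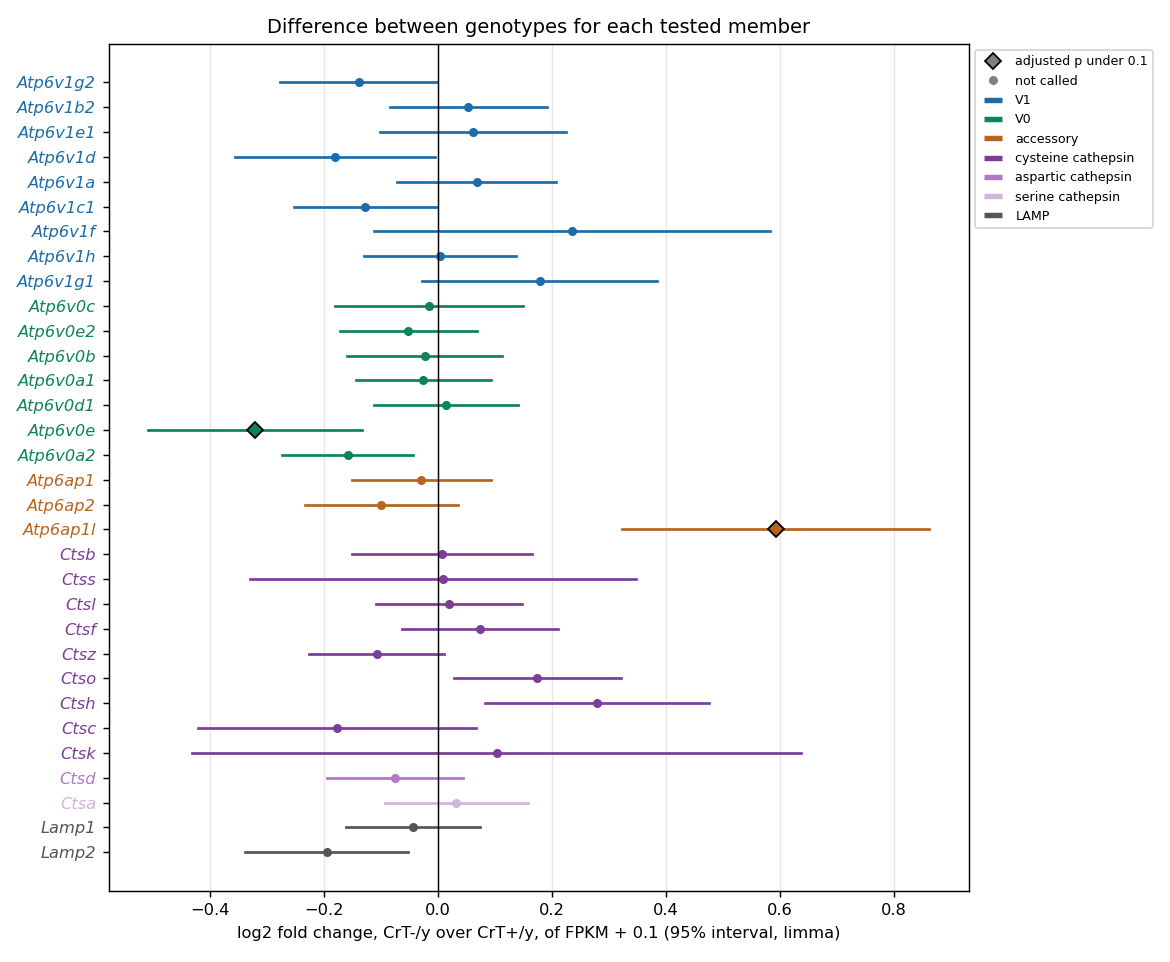
Log2 fold change of FPKM + 0.1 between CrT-/y (n = 4) and CrT+/y (n = 3) cortex for each of the 32 tested members (x axis), ordered by role and then by mean level (y axis). Points are limma estimates, bars their 95% confidence intervals, colors the role groups, and diamonds the 2 members with an adjusted p-value under 0.1, *Atp6v0e* at -0.32 and *Atp6ap1l* at 0.59.

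The V1 sector hydrolyses ATP in a head made of A and B subunits, which is held by stalks of C, E, G and H subunits and turns a shaft of D and F. It had 9 tested genes, and 0 of them were called. The count at an unadjusted p under 0.05 was 3, and the median log2 fold change was 0.053. The summed V1 level was 1516 to 1551 FPKM in CrT-/y animals and 1464 to 1610 FPKM in CrT+/y animals. The CrT-/y animals thus lay inside the range of the CrT+/y animals, and the spread was wider in CrT+/y animals (SD 79.0, n = 3) than in CrT-/y animals (SD 15.3, n = 4). *Atp6v1a*, the catalytic A subunit, was at 179 ± 7.46 FPKM in CrT-/y (SD, n = 4) and 171 ± 11.01 FPKM in CrT+/y animals (SD, n = 3). *Atp6v1b2*, the B subunit of most tissues, was at 270.3 ± 6.96 FPKM (SD, n = 4) and 261 ± 18.0 FPKM (SD, n = 3). Neither difference was larger than the spread of the CrT+/y animals.

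In 3 V1 genes all CrT-/y animals lay below all CrT+/y animals, although none of the 3 passed the test. Over all tested genes, 15% had groups that did not overlap with CrT-/y animals lower. *Atp6v1g2*, a stalk subunit found mainly in neurons, had 277, 274, 270.1 and 269 FPKM in CrT-/y and 325, 293 and 283 FPKM in CrT+/y animals (log2 fold change -0.14, standard error 0.061, limma adjusted p = 0.198). *Atp6v1d*, a shaft subunit, had 212, 201, 194 and 213 FPKM in CrT-/y and 263, 222 and 215 FPKM in CrT+/y animals (-0.18, standard error 0.078, limma adjusted p = 0.191). *Atp6v1c1*, a C subunit, had 155, 147, 153 and 150.5 FPKM in CrT-/y and 177, 160 and 161 FPKM in CrT+/y animals (-0.13, standard error 0.056, limma adjusted p = 0.193). In each of these genes CrT+/y replicate 1 was the highest animal and at least 1 other CrT+/y animal lay close to the CrT-/y range. Without CrT+/y replicate 1 the log2 fold changes were -0.080 for *Atp6v1g2*, -0.091 for *Atp6v1d* and -0.080 for *Atp6v1c1*, and under upper quartile scaling they were -0.076, -0.12 and -0.065. Of the other tested V1 genes, *Atp6v1e1* spanned 191 to 236 FPKM and *Atp6v1h* 70.4 to 79.7 FPKM over all animals, with overlapping groups.

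*Atp6v1f*, the other shaft subunit, and *Atp6v1g1*, the widely expressed stalk subunit, are named because of their spread, a choice made after their values were seen. *Atp6v1f* had 75.4, 86.6, 82.2 and 87.1 FPKM in CrT-/y animals and 58.2, 61.6 and 96.4 FPKM in CrT+/y animals. *Atp6v1g1* had 71.4, 72.5, 67.6 and 70.1 FPKM in CrT-/y animals and 58.8, 55.3 and 73.8 FPKM in CrT+/y animals. In both genes CrT+/y replicates 1 and 2 lay below every CrT-/y animal and CrT+/y replicate 3 lay above every CrT-/y animal. The log2 fold change was 0.24 (standard error 0.15, limma adjusted p = 0.367) for *Atp6v1f* and 0.18 (standard error 0.091, limma adjusted p = 0.253) for *Atp6v1g1*. Without CrT+/y replicate 3 the values were 0.46 (limma adjusted p = 0.00664) and 0.30 (limma adjusted p = 0.00939).

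The CrT+/y animals also differed among themselves in how their values ran with transcript length. Over the 12904 tested genes with a transcript length, log2 FPKM relative to the other animals changed by -0.030 to -0.012 per doubling of length in CrT-/y animals, by 0.034 and 0.063 in CrT+/y replicates 1 and 2 and by -0.027 in CrT+/y replicate 3, whose slope lay inside the CrT-/y range. *Atp6v1f* has a transcript of 703 bases and *Atp6v1g1* one of 1135 bases. After each animal's trend with length was taken out, the log2 fold change was 0.13 for *Atp6v1f* (limma adjusted p = 0.483) and 0.14 for *Atp6v1g1* (limma adjusted p = 0.232), with all 7 animals kept. What made the animals differ in this slope was not tested.

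**Figure D2:**
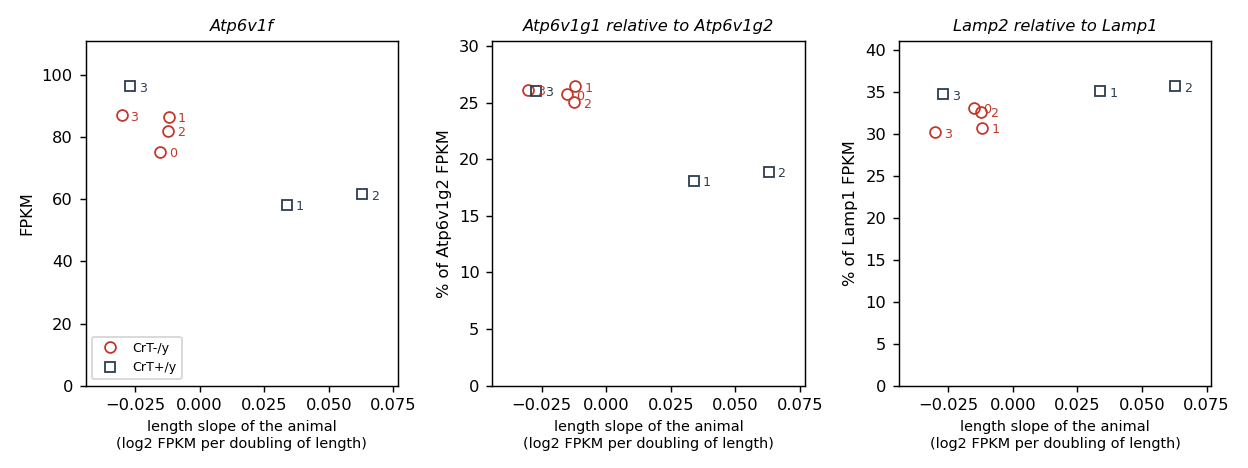
*Atp6v1f* in FPKM, *Atp6v1g1* as a percent of *Atp6v1g2* and *Lamp2* as a percent of *Lamp1* (y axes) against the slope of each animal's log2 FPKM on transcript length (x axes); circles are CrT-/y and squares CrT+/y animals, and digits are replicate numbers. CrT+/y replicates 1 and 2 have slopes of 0.034 and 0.063 and stand apart in the first and second panels, whereas in the third all CrT+/y animals lie above all CrT-/y animals.

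The V0 sector carries protons through a ring of c subunits against the a subunit, and the d and e subunits complete it. It had 7 tested genes, with 0 called higher and 1 called lower, and its median log2 fold change was -0.025. The 1 call is 14.3% of this small group, beside 10.1% of all tested genes. The summed V0 level was 1724 to 1806 FPKM in CrT-/y animals and 1672 to 1889 FPKM in CrT+/y animals, so the groups overlapped. *Atp6v0c*, the main ring subunit, was the most abundant member and the gene with rank 11 in the whole table. Its level was 984, 983, 1008 and 1029 FPKM in CrT-/y and 1099, 924 and 1020 FPKM in CrT+/y animals, and the CrT-/y animals lay inside the CrT+/y range. *Atp6v0b*, the other ring subunit, was at 196 ± 7.43 FPKM (SD, n = 4) and 199.7 ± 12.2 FPKM (SD, n = 3). The ring genes stood in a ratio of 4.78 to 5.59 *Atp6v0c* to 1 *Atp6v0b* over the animals, on the FPKM scale, which is already divided by length. *Atp6v0d1*, which joins the ring to the shaft, spanned 124 to 139 FPKM, with overlapping groups.

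*Atp6v0e* was the V0 gene called lower in CrT-/y cortex. It had 23.7, 18.8, 22.05 and 21.02 FPKM in CrT-/y animals and 25.1, 28.6 and 26.3 FPKM in CrT+/y animals, without overlap, although CrT-/y replicate 0 lay close to CrT+/y replicate 1. The means were 21.4 ± 2.06 FPKM (SD, n = 4) and 26.6 ± 1.73 FPKM (SD, n = 3), a change of -19.9% on the FPKM + 0.1 scale (log2 fold change -0.32, standard error 0.084, 95% confidence interval -0.51 to -0.13, limma adjusted p = 0.0664). The call was close to the threshold and was kept in 11 of 21 alternatives. It was lost after leaving out any of CrT-/y replicates 1, 2 and 3 or CrT+/y replicates 1 and 2 (limma adjusted p = 0.128 to 0.157). With all animals kept, it was lost after quantile normalization, upper quartile scaling and scaling to the summed FPKM. It was also lost with no filter and without a variance trend (limma adjusted p = 0.103 to 0.118 over these settings). Its brain-enriched paralog *Atp6v0e2* was more abundant, with 209.7 to 223.7 FPKM in CrT-/y and 218 to 236 FPKM in CrT+/y animals, and its log2 fold change was -0.051 (standard error 0.054, limma adjusted p = 0.584). *Atp6v0e* therefore amounted to 8.95% to 10.6% of *Atp6v0e2* in CrT-/y animals and to 10.7% to 13.1% in CrT+/y animals.

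The a subunits differ in where they place the pump. *Atp6v0a1*, the form of synaptic vesicles, was at 175 ± 4.03 FPKM in CrT-/y (SD, n = 4) and 179 ± 7.48 FPKM in CrT+/y animals (SD, n = 3), with a 95% confidence interval of the log2 fold change from -0.14 to 0.093. *Atp6v0a2*, a form of the Golgi and endosomes, had 15.9, 16.0, 15.7 and 15.7 FPKM in CrT-/y and 17.2, 18.0 and 17.8 FPKM in CrT+/y animals. All CrT-/y animals lay below all CrT+/y animals, but the difference missed the threshold (log2 fold change -0.16, standard error 0.051, limma adjusted p = 0.107). Its transcript has 5345 bases, and the log2 fold change was -0.098 with the length correction and -0.096 under upper quartile scaling. It shares 662 exonic bases with an antisense gene, and the strand used in counting is not given in the sources used here. *Tcirg1*, the a subunit of lysosomes in osteoclasts and macrophages, lies outside the symbol rule and was at 4.45 ± 0.378 FPKM (SD, n = 4) and 4.22 ± 0.521 FPKM (SD, n = 3), limma adjusted p = 0.675.

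Of the accessory genes, *Atp6ap1* and *Atp6ap2* take part in assembly of the pump, and both lie on the X chromosome, as *Slc6a8* does. *Atp6ap1* was at 183 ± 2.86 FPKM in CrT-/y (SD, n = 4) and 187 ± 9.81 FPKM in CrT+/y animals (SD, n = 3). *Atp6ap2* was at 146 ± 8.82 FPKM (SD, n = 4) and 156 ± 2.33 FPKM (SD, n = 3), and CrT-/y replicate 0, at 157.5 FPKM, lay among the CrT+/y animals. Neither was called (limma adjusted p = 0.771 and 0.327).

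*Atp6ap1l*, a gene named for its likeness to *Atp6ap1*, rose in CrT-/y cortex. It had 7.21, 7.61, 7.87 and 9.47 FPKM in CrT-/y animals and 6.19, 5.05 and 4.67 FPKM in CrT+/y animals. All CrT-/y animals lay above all CrT+/y animals, and CrT-/y replicate 3 was the highest. The means were 8.04 ± 0.992 FPKM (SD, n = 4) and 5.30 ± 0.788 FPKM (SD, n = 3), a fold change of 1.51 with a 95% confidence interval of 1.25 to 1.82 (log2 fold change 0.59, standard error 0.12, limma adjusted p = 0.0395). The gene lies on chromosome 13 (90883433 to 90905355, minus strand, GRCm38) and shares no exonic base with another annotated gene. The log2 fold change was 0.51 to 0.71 over 21 alternatives and the call was kept in 18 of them. It was lost without CrT-/y replicate 1 (limma adjusted p = 0.114) or without CrT-/y replicate 2 (limma adjusted p = 0.106), when the log2 fold change was 0.62 and 0.60.

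**Figure D3:**
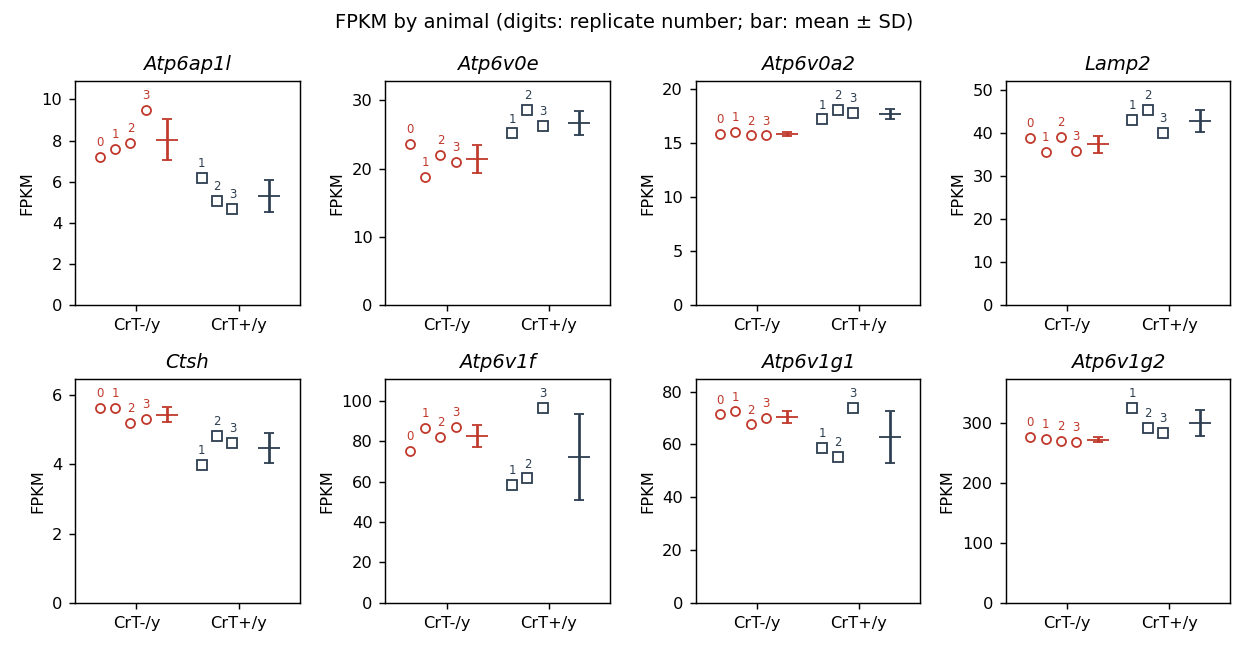
FPKM (y axes, from 0) of 8 members in each CrT-/y (circles) and CrT+/y (squares) animal, with replicate numbers as digits and the mean ± SD beside the points. The groups do not overlap in *Atp6ap1l*, *Atp6v0e*, *Atp6v0a2*, *Lamp2*, *Ctsh* and *Atp6v1g2*, whereas CrT+/y replicate 3 is the highest animal in *Atp6v1f* and *Atp6v1g1*.

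Cathepsins are the proteases of the lysosome, and 11 of the 18 were tested. In this group 0 genes were called, 2 had an unadjusted p under 0.05, and the median log2 fold change was 0.019. Their summed level was 468 to 481 FPKM in CrT-/y animals and 466 to 489 FPKM in CrT+/y animals. *Ctsd* and *Ctsb* together made up 56.9% to 62.4% of it. *Ctsd*, the main aspartic protease of neuronal lysosomes, had 159, 161, 170.2 and 167 FPKM in CrT-/y and 172, 167 and 179.9 FPKM in CrT+/y animals. The groups overlapped, and the gene was not called (log2 fold change -0.075, standard error 0.053, limma adjusted p = 0.409). *Ctsb*, a cysteine protease, was at 115 ± 5.99 FPKM (SD, n = 4) and 114 ± 9.81 FPKM (SD, n = 3), with a 95% confidence interval of the log2 fold change from -0.15 to 0.17. *Ctsd* shares 670 exonic bases on its own strand with another annotated gene and *Ctsb* shares 774 with a gene on the opposite strand, so reads there could be counted for either gene.

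*Ctss*, a cysteine protease of microglia, varied most among the well expressed cathepsins. It had 52.4, 62.7, 58.6 and 38.1 FPKM in CrT-/y animals and 54.5, 53.5 and 47.3 FPKM in CrT+/y animals. CrT-/y animals held both the highest and the lowest value, and the 95% confidence interval ran from -0.33 to 0.35. *Ctsz*, a carboxypeptidase also abundant in microglia, had 21.91, 22.04, 20.99 and 22.7 FPKM in CrT-/y and 24.2, 23.1 and 23.5 FPKM in CrT+/y animals, without overlap (log2 fold change -0.11, standard error 0.052, limma adjusted p = 0.235). *Ctsl* spanned 45.0 to 50.7 FPKM and *Ctsf* 23.3 to 27.2 FPKM over all animals, with overlapping groups. *Ctsl* shares 1742 exonic bases with an antisense gene and 395 on its own strand with a processed pseudogene. Of the other tested members, *Atp6v0b*, *Atp6v1g2*, *Atp6v1h*, *Ctsa*, *Ctsz* and *Lamp1* also share exonic bases with a gene on the opposite strand. *Ctsc*, which activates other proteases by trimming their ends, spanned 2.96 to 4.20 FPKM. *Ctsk*, known from osteoclasts, was near the limit of the test at 1.10 to 2.17 FPKM. *Ctsa*, a serine carboxypeptidase that also stabilizes lysosomal glycosidases, was at 23.4 ± 0.603 FPKM (SD, n = 4) and 22.9 ± 1.17 FPKM (SD, n = 3), with a 95% confidence interval of the log2 fold change from -0.093 to 0.16.

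In *Ctsh* and *Ctso* all CrT-/y animals lay above all CrT+/y animals. *Ctsh*, a cysteine protease with aminopeptidase activity, had 5.61, 5.62, 5.18 and 5.29 FPKM in CrT-/y and 3.97, 4.81 and 4.61 FPKM in CrT+/y animals. The difference of 21.4% just missed the threshold (log2 fold change 0.28, standard error 0.087, limma adjusted p = 0.101), and it was called under 6 of 21 alternatives, over all of which the adjusted p ran from 0.0625 to 0.253. *Ctso*, a little studied cysteine protease, had 11.3, 10.5, 11.6 and 11.6 FPKM in CrT-/y and 9.49, 10.4 and 9.98 FPKM in CrT+/y animals, and CrT-/y replicate 1 nearly met CrT+/y replicate 2 (log2 fold change 0.17, standard error 0.065, limma adjusted p = 0.144).

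The LAMP proteins line the inner face of the lysosomal membrane. *Lamp1* had 118, 116, 119.6 and 119 FPKM in CrT-/y and 122, 127 and 115 FPKM in CrT+/y animals, with a log2 fold change of -0.043 (standard error 0.052, limma adjusted p = 0.636). *Lamp2*, which also serves chaperone-mediated autophagy and lies on the X chromosome, had 38.9, 35.6, 39.0 and 35.8 FPKM in CrT-/y and 43.0, 45.3 and 40.0 FPKM in CrT+/y animals. The groups did not overlap, and the difference missed the threshold (log2 fold change -0.19, standard error 0.063, limma adjusted p = 0.109). Relative to *Lamp1* in the same animal, *Lamp2* was 33.1%, 30.7%, 32.6% and 30.2% in CrT-/y animals and 35.1%, 35.6% and 34.7% in CrT+/y animals. A single scaling factor per animal cancels in this ratio. A trend with transcript length does not, since the transcript has 3604 bases in *Lamp2* and 2229 in *Lamp1*. The log2 fold change of *Lamp2* alone was -0.15 with the length correction (limma adjusted p = 0.17). Under upper quartile scaling it was -0.13 (limma adjusted p = 0.235). *Lamp2* was called lower under 3 of 21 alternatives, over all of which the limma adjusted p ran from 0.0302 to 0.252. The 3 were a mean of at least 5 FPKM, array weights and leaving out CrT+/y replicate 3. No test is given for the ratio, because the pair was chosen with the values of both genes known.

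In all, 10 of the 32 tested members (31.2%) had groups that did not overlap, beside 21.6% of all tested genes. CrT-/y animals were higher in 3 of them (*Atp6ap1l*, *Ctsh* and *Ctso*), beside 6.57% of all tested genes, and lower in 7 (*Atp6v0a2*, *Atp6v0e*, *Atp6v1c1*, *Atp6v1d*, *Atp6v1g2*, *Ctsz* and *Lamp2*), beside 15% of all tested genes. Without CrT+/y replicate 3, 10 members were called, and at the same time the calls over all tested genes went up from 1318 to 3736. These were *Atp6ap1l*, *Atp6v1f*, *Atp6v1g1* and *Ctsh*, which were higher, and *Atp6v0a2*, *Atp6v0e*, *Atp6v1c1*, *Atp6v1d*, *Atp6v1g2* and *Lamp2*, which were lower in CrT-/y animals. Without CrT-/y replicate 1 or 2, 0 members were called with limma, beside 64 and 223 genes over the table.

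**Figure D4:**
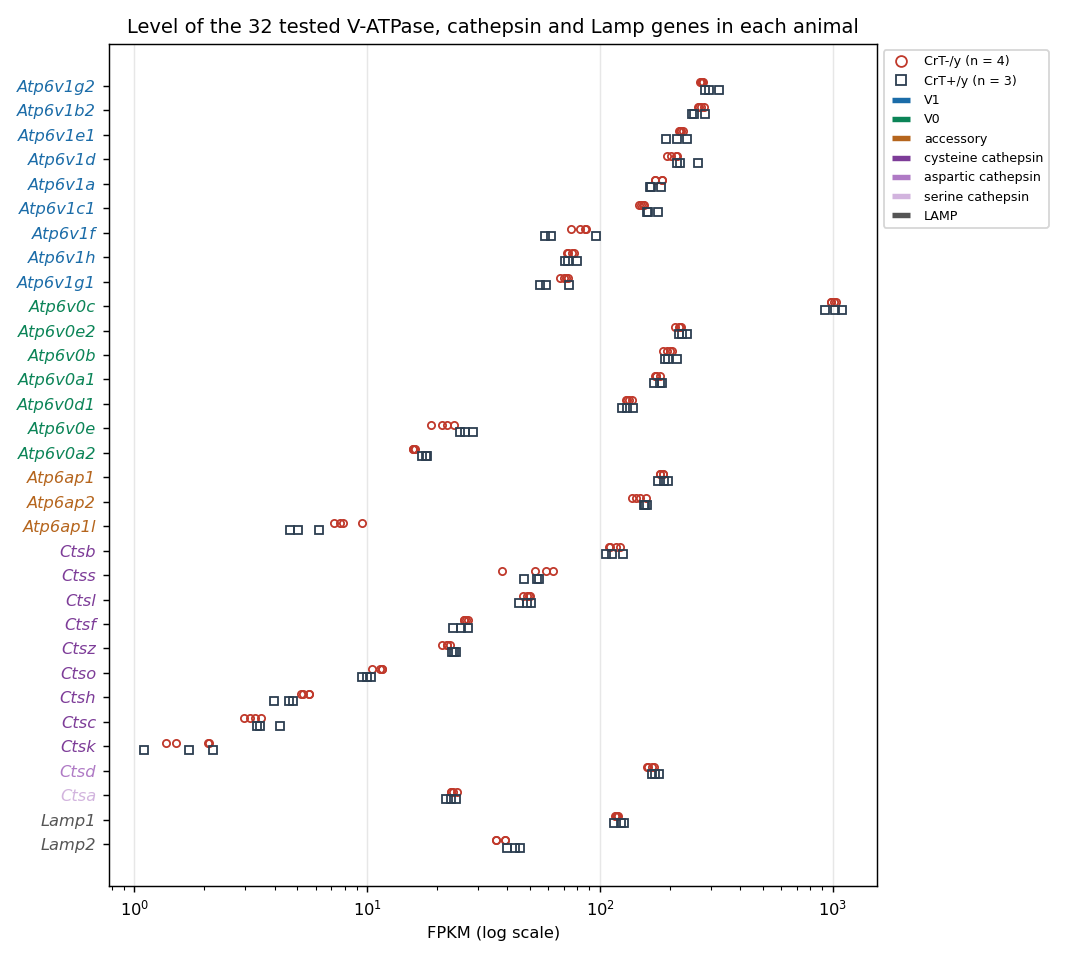
FPKM on a log scale (x axis) of the 32 tested members (y axis, by role and then by mean level) in each CrT-/y animal (circles) and CrT+/y animal (squares). The genes span from *Ctsk*, at 1.10 to 2.17 FPKM, to *Atp6v0c*, at 924 to 1099 FPKM, and the animals of both genotypes lie close together within most genes.

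For several subunits the paralogs differed far more in level than the genotypes did. *Atp6v0a1* was 9.46 to 11.6 times as abundant as *Atp6v0a2*, *Atp6v0e2* 7.64 to 11.2 times as abundant as *Atp6v0e*, and *Atp6v1g2* 3.78 to 5.53 times as abundant as *Atp6v1g1* over the animals, on the FPKM scale. In each pair the more abundant gene is the one known from brain or synaptic vesicles. The V1 and V0 genes together took 0.814% to 0.867% of the summed FPKM of an animal and the cathepsins 0.119% to 0.126%, with overlapping groups in both.

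The 14 members under a mean of 1 FPKM are forms known from other tissues, together with a pseudogene. They were *Atp6v0a4*, *Atp6v1b1*, *Atp6v1c2*, *Atp6v1g3* and *Atp6v0d2*, known from kidney, osteoclasts or other epithelia, *Atp6v1e2*, known from testis, and the processed pseudogene *Atp6v0c-ps2*. *Ctsj*, *Ctsm*, *Ctsq* and *Ctsr* are placental proteases of rodents, and *Ctse*, *Ctsg* and *Ctsw* are known from immune cells or stomach. *Atp6v1g3*, *Ctsj*, *Ctsm*, *Ctsq* and *Ctsr* were listed at 0 FPKM in every animal. *Atp6v1c2* was the most regular of the others, with 0.522, 0.550, 0.685 and 0.641 FPKM in CrT-/y and 0.552, 0.491 and 0.215 FPKM in CrT+/y animals, and its groups overlapped. *Atp6v0c-ps2* reached 1.17 FPKM in CrT+/y replicate 3 and 0.793 FPKM in CrT-/y replicate 3, was near 0 in 4 animals and is uncertain, since a processed pseudogene shares sequence with its parent gene. The remaining members stayed under 0.2 FPKM in every animal.

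Other genes of the lysosome and of the pump were counted from lists made by function. They held 106 genes of the table, of which 101 were tested, with 1 called higher and 6 called lower in CrT-/y animals. The 7 calls are 6.93% of those tested, beside 10.1% of all tested genes. Lysosomal hydrolases and their cofactors had 35 tested genes, with 1 called higher, 3 called lower and a median log2 fold change of 0.0048. The share called, 11.4%, was near the 10.1% of all tested genes. *Lipa*, the acid lipase, had 5.93, 6.44, 5.99 and 6.46 FPKM in CrT-/y and 7.94, 8.88 and 7.69 FPKM in CrT+/y animals (log2 fold change -0.39, limma adjusted p = 0.0371). *Hexa*, a subunit of beta-hexosaminidase, had 23.6, 21.4, 21.2 and 24.02 FPKM in CrT-/y and 26.4, 26.3 and 28.8 FPKM in CrT+/y animals (-0.27, limma adjusted p = 0.0609). Both genes fell, and their groups did not overlap. *Tpp1*, a tripeptidyl peptidase, had 24.1, 22.1, 22.7 and 23.5 FPKM in CrT-/y and 31.96, 30.3 and 25.1 FPKM in CrT+/y animals (-0.32, limma adjusted p = 0.064). *Naglu*, which removes sugars from heparan sulfate, was the hydrolase called higher, with 5.34, 5.01, 4.22 and 4.88 FPKM in CrT-/y and 3.43, 3.61 and 4.05 FPKM in CrT+/y animals (0.38, limma adjusted p = 0.0693).

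Lysosomal membrane proteins had 21 tested genes and 0 calls with limma, 0 at an unadjusted p under 0.05, and a median log2 fold change of -0.067. The genes with the smallest p-values were the potassium channel *Tmem175* (0.13, limma adjusted p = 0.205), *Cd68*, which is abundant in microglia (0.19, limma adjusted p = 0.239), and *Scarb2*, which carries glucocerebrosidase to lysosomes (-0.10, limma adjusted p = 0.241). V-ATPase genes outside the symbol rule and assembly factors had 13 tested genes and a median of -0.071. Of these 13, 1 was called lower (7.69%, beside 10.1% of all tested genes called). It was *Ncoa7*, whose product interacts with V1, with 19.1, 18.7, 18.3 and 18.8 FPKM in CrT-/y and 22.5, 20.6 and 20.9 FPKM in CrT+/y animals (-0.19, limma adjusted p = 0.0843). *Tmem9* (0.21, limma adjusted p = 0.112) and the assembly factor *Tmem199* (-0.19, limma adjusted p = 0.115) missed the threshold.

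Genes that sort enzymes to the lysosome had 10 tested genes, of which 9 had a log2 fold change below 0 and 1 was called lower. The share called, 10%, was near the 10.1% of all tested genes. The share of all tested genes below 0 was not counted. The called gene was *Gga3*, an adaptor of the mannose 6-phosphate receptor route, with 19.4, 19.8, 19.4 and 19.3 FPKM in CrT-/y and 22.01, 23.1 and 21.6 FPKM in CrT+/y animals (-0.19, limma adjusted p = 0.0697). *Gnptab*, which makes the mannose 6-phosphate tag (-0.17, limma adjusted p = 0.12), and *Gga1* (-0.15, limma adjusted p = 0.159) were not called. The median of this list was -0.089, beside -0.033 over all tested genes.

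Cathepsin inhibitors had 5 tested genes, and *Serpinb6a* was called lower, with 15.7 ± 0.337 FPKM in CrT-/y (SD, n = 4) and 17.7 ± 0.472 FPKM in CrT+/y animals (SD, n = 3) (-0.17, limma adjusted p = 0.0935). This 1 call is 20% of the short list, beside 10.1% of all tested genes. *Serpina3n*, which rises in reactive astrocytes, was uneven. CrT-/y replicates 1 and 2 had 24.1 and 26.6 FPKM, beside 5.60 and 6.92 FPKM in CrT-/y replicates 0 and 3 and 5.05 to 6.42 FPKM in CrT+/y animals (1.14, limma adjusted p = 0.205). *Cstb* had a log2 fold change of 0.13 (limma adjusted p = 0.52). The TFEB family and the Ragulator and Rag proteins, which sense nutrients at the lysosome, had 17 tested genes, 0 calls with limma and 1 gene at an unadjusted p under 0.05. This gene was *Lamtor4*, with a log2 fold change of 0.39 (limma adjusted p = 0.104), and *Rraga* (-0.13, limma adjusted p = 0.212) and *Fnip1* (-0.15, limma adjusted p = 0.221) came next.

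**Figure D5:**
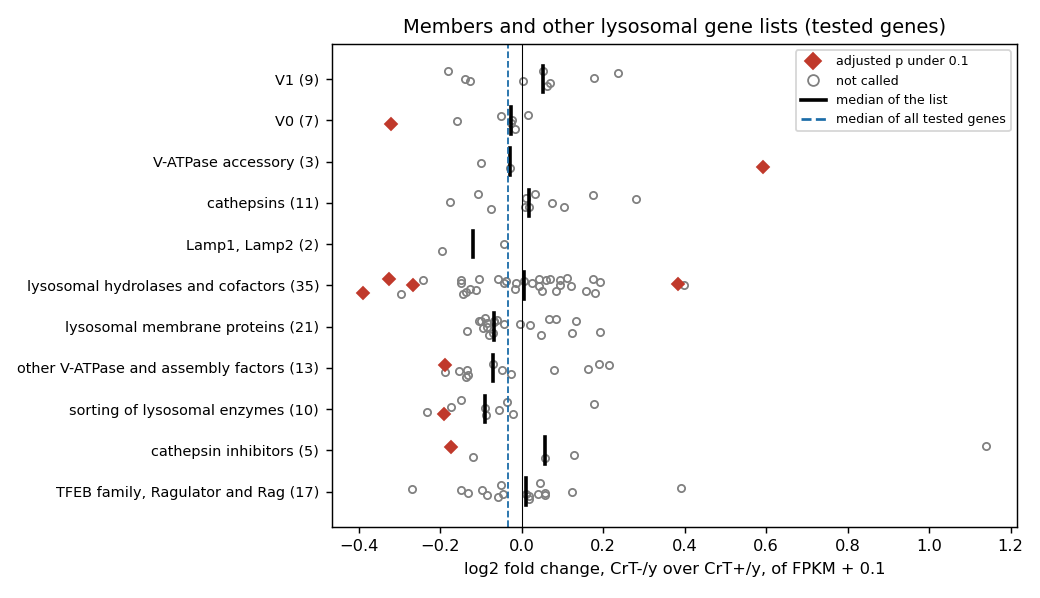
Log2 fold change of FPKM + 0.1 between CrT-/y and CrT+/y cortex (x axis) for the tested genes of each member group and each other lysosomal list (y axis, number of tested genes in brackets). Red diamonds have an adjusted p-value under 0.1, black bars are list medians and the dashed line is the median of all tested genes, -0.033; list medians lie between -0.12 and 0.058.

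Markers of the cell types in cortex were read beside these values. Of the 57 tested markers, 3 were called higher and 4 lower (12.3%), beside 10.1% of all tested genes (2.9% higher and 7.25% lower). Microglial markers had 16 tested genes, with 2 called higher (*Trem2* and *Siglech*) and 1 lower (*Selplg*), and their summed level was 239 to 248 FPKM in CrT-/y and 233 to 255 FPKM in CrT+/y animals. Of 5 endothelial markers, 3 were called lower (*Pecam1*, *Flt1* and *Ly6c1*), and the summed level was 84.7 to 100.2 FPKM in CrT-/y and 101.7 to 121.6 FPKM in CrT+/y animals. Neuronal markers had 1 call of 8 tested, *Gad1*, which was higher. Markers of astrocytes, oligodendrocytes, perivascular macrophages, choroid plexus, ependyma and blood had 0 calls. The summed oligodendrocyte markers were lowest in CrT-/y replicate 3, at 886 FPKM, beside 1247 to 1642 FPKM in the other animals. The summed choroid plexus markers were 404 FPKM in CrT+/y replicate 2, whereas the others had 3.90 to 53.1 FPKM. No marker with values was at exactly 0 FPKM in any animal, but 2 blood markers were near 0 in several animals. *Hba-a2* ran from 0.0027 to 10.6 FPKM and *Hbb-bs* from 0.0016 to 14.9 FPKM. Of the 5 listed blood markers, 4 had values. The part of these differences in the values of the members was not tested. Without CrT+/y replicate 2, *Atp6ap1l* was at a log2 fold change of 0.56 (limma adjusted p = 0.0868) and *Atp6v0e* at -0.27 (limma adjusted p = 0.147).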

How the data were processed

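Cortical RNA of 4 CrT-/y and 3 CrT+/y mice was sequenced as paired reads from mRNA libraries, 1 library per animal. The authors aligned the reads to mm10 (Bowtie and Cuffnorm are named in the submitters' processing notes), kept uniquely aligned reads and deposited 1 table of FPKM per gene and animal. FPKM are divided by transcript length and depth and are not counts, so no count model was used. Depth per animal is known here only in relative terms.

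For the comparison, 0.1 was added to FPKM, log2 was taken, genes whose mean reached 1 FPKM were kept, and genotype was tested with limma (version 3.58.1, R 4.3.3) with a variance trend, and p-values of all 12988 tested genes were adjusted by Benjamini-Hochberg. Because of the added 0.1, changes of genes near 1 FPKM are understated. Calls are adjusted p-values under 0.1. On simulated data for this comparison with 200 of 12988 genes changed, 0% were recovered at a log2 change of 0.2, 12% at 0.3, 78% at 0.6 and 90.5% at 1. Fewer genes were changed there than were called in the data (1318), so recovery in the data can be higher. Other steps used Python 3.11.15, pandas 2.3.3 and matplotlib 3.10.9. Transcript lengths and positions come from GENCODE M21 (GRCm38), with 23310 symbols matched, 648 matched through a synonym and 388 not matched; promoter windows come from RefSeq GRCm38.p6. No column of the table was left out.

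The members, the lists and the tests were chosen with earlier results of these data known. Named with values were members past the threshold, in each role group the 2 of highest mean and the 2 of smallest p-value, the 3 genes of smallest p-value in each other list, *Slc6a8* and *Tcirg1*. All other members are given by symbol and range, and exceptions are stated. Of the listed genes, *Acp5*, *Tpcn2*, *Cst6*, *Cst7* and *Tfec* were under the filter. The alternatives were other pseudocounts, filters and scalings, a length correction, other variance models, a block on the replicate number, and each animal left out in turn. Ratios of paralogs were added after seeing the data.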

Additional observations from a re-analysis of the deposited data

Results flagged for a closer look

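Of 68 values looked at in the 4 CrT-/y animals for 1 animal far from the others, where chance flags about 5%, 1 stood out. *Tmem9* was at 34.55 FPKM in CrT-/y replicate 3 and at 32.13 to 32.32 FPKM in the other 3, a gap of 0.924 of the whole range. In CrT+/y animals it had 27.5, 26.1 and 31.5 FPKM.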

How the results depend on the processing

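Numbers of members called higher and lower in CrT-/y animals (1 and 1 as reported) stayed at 1 and 1 with a pseudocount of 1 or 0.01 and with a mean of at least 0.1 FPKM. They were 1 and 0 with no filter and without a variance trend, 1 and 3 with a mean of at least 5 FPKM, 2 and 0 after quantile normalization and scaling to the summed FPKM, 3 and 0 after upper quartile scaling, 2 and 1 after median centring and the length correction, and 3 and 2 with array weights. With 1 animal left out they were 0 to 4 and 0 to 6, and the 4 and 6 came without CrT+/y replicate 3. For the other lysosomal lists (1 and 6 as reported), the counts were 0 and 3 with no filter, 2 higher with a mean of at least 5 FPKM, 6 and 1 after quantile normalization, 6 and 2 after upper quartile scaling, 3 and 3 after median centring, 5 and 3 after scaling to the summed FPKM, 4 higher with the length correction and 4 higher with array weights, and 0 to 11 and 0 to 19 with 1 animal left out (0 higher without any of CrT-/y replicates 1 to 3 and CrT+/y replicates 1 and 2, 11 and 19 without CrT+/y replicate 3). For the marker lists (3 and 4 as reported), they were 1 and 1 with no filter, 2 lower after upper quartile scaling, 1 and 2 without a variance trend, and 0 to 6 and 0 to 7 with 1 animal left out (0 and 0 without CrT-/y replicate 1 or 2 or CrT+/y replicate 1, and the highest counts when CrT+/y replicate 3 was dropped). Over all genes, the 1318 calls became 730 with no filter and 64 to 3736 with 1 animal left out, the lowest without CrT-/y replicate 1 and the highest when CrT+/y replicate 3 was dropped. The fall of *Slc6a8* was called under all 21 alternatives. The call of *Atp6v0e* was lost with no filter (adjusted p = 0.107 with limma), without a variance trend (0.103), after quantile normalization (0.118), upper quartile scaling (0.117) and scaling to the summed FPKM (0.107). The cause of these changes was not tested.

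Whether replicate numbers pair the animals is not known here. The correlation of deviations from the group means was -0.078, 0.046 and -0.051 for animals of the same number. For animals of different numbers it ran from -0.20 to 0.25. These values cannot show whether animals shared a litter or a batch. With the replicate number as a block, 1 member was called higher and 1 lower, 576 genes were called over the table, and the counts were 1 lower for the other lists and 2 lower for the markers. CrT-/y replicate 0 has no partner and adds nothing to that fit. With the block and the length correction, 0 members were higher and 1 lower, *Atp6ap1l* was at 0.61 (adjusted p = 0.112 with limma), 317 genes were called, and 0 genes of the other lists were lower.

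Small differences changed sign, all of them in members that were not called. Under upper quartile scaling the log2 fold change was 0.033 for *Atp6ap1*, 0.037 for *Atp6v0a1*, 0.039 for *Atp6v0b*, 0.047 for *Atp6v0c*, 0.011 for *Atp6v0e2* and 0.019 for *Lamp1*. Under median centring it was 0.0080, 0.012, 0.014 and 0.022 for *Atp6ap1*, *Atp6v0a1*, *Atp6v0b* and *Atp6v0c*, and under scaling to the summed FPKM 0.011, 0.015, 0.017 and 0.025. After quantile normalization it was 0.0027 for *Atp6v0a1* and 0.015 for *Atp6v0c*. With the length correction it was 0.024 for *Atp6v0a1* and -0.0059 for *Ctss*, with the length correction and the block 0.0059 for *Atp6ap1*, 0.029 for *Atp6v0a1* and -0.0040 for *Ctss*, with the block -0.0012 for *Ctsb*, and with array weights -0.0017 for *Ctsl*. With 1 animal left out, it ran from -0.069 to 0.0065 for *Atp6ap1*, -0.059 to 0.00018 for *Atp6v0a1*, -0.060 to 0.025 for *Atp6v0b*, -0.081 to 0.044 for *Atp6v0c*, -0.027 to 0.056 for *Atp6v0d1*, -0.016 to 0.14 for *Atp6v1e1*, -0.033 to 0.056 for *Atp6v1h*, -0.0035 to 0.070 for *Ctsa*, -0.046 to 0.074 for *Ctsb*, -0.15 to 0.31 for *Ctsk*, -0.028 to 0.058 for *Ctsl* and -0.080 to 0.16 for *Ctss*.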
